A study of Mus musculus with 12 samples.

Results

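Positions of nucleosomes were compared between round spermatids (RS) and the meiotic fraction (M) of mouse testis after the lightest digestion with micrococcal nuclease (MNase), 0.5 U. The members were the 179133 calls of the RS list and the 42178 calls of the M list at 0.5 U, together 221311 of the 415758 calls in the 6 lists of the series, or 53.2%. A call is a 140 bp interval that the authors placed on the genome as a nucleosome, with a p-value. Both stages came from adult male SV129 mice aged 8 to 12 weeks, with no transgene, deletion or other treatment named. Testis cells of 11 mice per collection were separated by sedimentation, and fractions with a purity of at least 85% by nuclear staining were pooled. The M samples are titled meiotic spermatid, whereas their protocol names a meiotic fraction, and the name of the protocol is used here. RS cells were digested at 2 times the number of M cells, for 7.5 min at 37 °C in both stages. At 0.5 U there was thus less enzyme per RS cell than per M cell. This is a ratio per cell, and enzyme per amount of DNA was not compared. Each list was made from the reads of both samples of a stage, 4 samples in all, so no replicate lists existed and no difference below could be tested against replicate error. Intervals are 95% intervals for counting error only, and they are too narrow because overlapping calls are not independent. The files hold no expression, so the stages were not checked against marker genes.

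MNase cuts the linker DNA between nucleosomes faster than the DNA wrapped around the histone core, so protected fragments mark nucleosomes. Light digestion releases first the nucleosomes whose linkers are most exposed, and heavier digestion reaches the rest. In the meiotic prophase of males the X and Y chromosomes lie in a silenced domain, the sex body, and in round spermatids, which are haploid, much of that silencing persists. Round spermatids later exchange most of their histones for transition proteins and then protamines. At active promoters with many CpG dinucleotides, the stretch at the transcription start is commonly depleted of nucleosomes and flanked by positioned ones. In bulk chromatin, a position held by a nucleosome in fewer cells and a position recovered less from each cell cannot be told apart.

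The sequences under calls next to transcription starts are shown first, because the difference between the stages there was not the same in all classes of promoter. They are RefSeq sequences of build GRCm38.p6, written 5′ to 3′ on the strand of the gene, and capitals mark CG dinucleotides. Slc35b1, a nucleotide sugar transporter, and Mfap1a, a protein of the spliceosome, held a call in both lists with midpoints within 20 bp of each other. The M call is printed; its midpoint lay 83 bp upstream of the Slc35b1 start and 170 bp upstream of the Mfap1a start.
Slc35b1, chr11:95384704-95384843, + strand: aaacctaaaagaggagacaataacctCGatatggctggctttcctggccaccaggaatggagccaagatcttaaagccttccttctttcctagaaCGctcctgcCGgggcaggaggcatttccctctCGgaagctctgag
Mfap1a, chr2:121506757-121506896, - strand: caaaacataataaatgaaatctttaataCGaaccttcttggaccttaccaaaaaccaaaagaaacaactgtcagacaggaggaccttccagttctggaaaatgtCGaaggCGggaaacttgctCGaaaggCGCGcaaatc

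Other calls had no call of the M list within 20 bp. The RS calls with the most reads implied by their p-values, 9 to 11 reads, that lay near starts of genes with a CpG-rich or intermediate promoter included those of Psmd1, a proteasome subunit, Bckdha, a subunit of branched-chain keto acid dehydrogenase, Cactin, a splicing factor, and Jarid2, a component of Polycomb repressive complexes.
Psmd1, chr1:86064442-86064581, + strand: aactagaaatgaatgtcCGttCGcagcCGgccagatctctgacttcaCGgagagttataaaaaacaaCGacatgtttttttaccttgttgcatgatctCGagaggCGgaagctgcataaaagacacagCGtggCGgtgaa
Bckdha, chr7:25658802-25658941, - strand: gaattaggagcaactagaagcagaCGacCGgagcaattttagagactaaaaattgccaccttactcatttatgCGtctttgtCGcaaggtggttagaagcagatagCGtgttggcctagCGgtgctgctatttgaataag
Cactin, chr10:81320992-81321131, + strand: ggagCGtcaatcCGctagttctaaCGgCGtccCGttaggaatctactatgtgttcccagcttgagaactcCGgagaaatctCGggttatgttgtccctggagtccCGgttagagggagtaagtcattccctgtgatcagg
Jarid2, chr13:44731057-44731196, + strand: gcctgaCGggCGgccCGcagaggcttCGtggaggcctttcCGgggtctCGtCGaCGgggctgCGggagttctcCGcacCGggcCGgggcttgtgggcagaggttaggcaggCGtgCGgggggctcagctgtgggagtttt

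The corresponding M calls at CpG-rich starts, without an RS call within 20 bp, included those of Cpsf2, a subunit of the polyadenylation complex, Fto, an RNA demethylase, and Phospho1, a phosphatase of bone mineralisation. They had 7, 7 and 8 implied reads.
Cpsf2, chr12:101975784-101975923, + strand: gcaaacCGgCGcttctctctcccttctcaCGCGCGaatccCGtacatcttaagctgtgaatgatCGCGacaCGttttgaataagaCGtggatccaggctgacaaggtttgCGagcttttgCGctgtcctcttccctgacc
Fto, chr8:91313302-91313441, + strand: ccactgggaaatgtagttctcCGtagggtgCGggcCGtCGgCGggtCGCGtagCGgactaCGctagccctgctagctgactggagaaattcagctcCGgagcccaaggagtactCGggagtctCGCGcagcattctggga
Phospho1, chr11:95824277-95824416, + strand: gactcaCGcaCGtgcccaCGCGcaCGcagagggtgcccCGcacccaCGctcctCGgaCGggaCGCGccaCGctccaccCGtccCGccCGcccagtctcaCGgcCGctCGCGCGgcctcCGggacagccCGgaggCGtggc

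The Jarid2 stretch held 14 CG dinucleotides in 140 bases and the Phospho1 stretch 23, so calls of both lists occurred on very CG-dense DNA. Whole promoters, from 250 bases before to 50 bases after the start, are shown for 2 CpG-rich starts that were among those with the most RS calls and had no M call within 300 bp. Hdhd3, a hydrolase-family gene, had 6 RS calls and Acad10, an acyl-CoA dehydrogenase family gene, had 3.
Hdhd3, chr4:62502151-62502450, - strand: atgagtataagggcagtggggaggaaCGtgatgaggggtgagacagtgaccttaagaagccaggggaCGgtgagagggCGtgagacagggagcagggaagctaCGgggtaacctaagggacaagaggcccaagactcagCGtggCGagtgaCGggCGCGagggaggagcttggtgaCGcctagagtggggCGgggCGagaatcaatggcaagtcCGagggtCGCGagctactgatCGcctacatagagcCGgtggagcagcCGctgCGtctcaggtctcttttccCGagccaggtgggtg
Acad10, chr5:121660461-121660760, - strand: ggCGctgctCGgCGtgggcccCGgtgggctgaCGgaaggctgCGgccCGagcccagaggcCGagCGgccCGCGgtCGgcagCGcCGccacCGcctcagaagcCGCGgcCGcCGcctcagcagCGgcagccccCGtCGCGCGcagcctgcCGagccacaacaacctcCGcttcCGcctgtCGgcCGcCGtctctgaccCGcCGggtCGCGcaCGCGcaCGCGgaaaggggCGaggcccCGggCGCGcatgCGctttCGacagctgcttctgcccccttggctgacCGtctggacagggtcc

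Among CpG-rich starts with the most M calls and no RS call within 300 bp were those of H13, a signal peptide peptidase, and Lrr1, a substrate adaptor of a ubiquitin ligase, with 3 M calls each.
H13, chr2:152669211-152669510, + strand: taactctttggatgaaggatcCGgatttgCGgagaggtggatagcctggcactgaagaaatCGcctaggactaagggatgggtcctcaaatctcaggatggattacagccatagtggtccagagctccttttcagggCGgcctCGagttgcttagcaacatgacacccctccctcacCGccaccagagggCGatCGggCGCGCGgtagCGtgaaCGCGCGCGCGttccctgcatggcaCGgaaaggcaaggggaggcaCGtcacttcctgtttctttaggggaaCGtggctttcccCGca
Lrr1, chr12:69168564-69168863, + strand: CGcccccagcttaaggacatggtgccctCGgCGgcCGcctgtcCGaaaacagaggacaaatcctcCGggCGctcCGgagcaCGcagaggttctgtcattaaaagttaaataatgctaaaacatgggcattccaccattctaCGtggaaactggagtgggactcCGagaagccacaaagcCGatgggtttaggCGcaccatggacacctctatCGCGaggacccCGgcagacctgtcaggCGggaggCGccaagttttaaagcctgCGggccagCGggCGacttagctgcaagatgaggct

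Around transcription starts the 2 lists had different shapes. At CpG-rich starts, M calls were concentrated within 300 bp of the start and scarce 1000 to 2000 bp away, and in RS the inner and outer densities differed much less. A start was called CpG-rich where the 300-base promoter had an observed over expected CpG ratio of at least 0.75 and at least 55% G and C, and CpG-poor where the ratio was under 0.48. These bounds and both windows were chosen after the profiles were seen. The classes were not matched for the gene content of their regions. Bins of 10 kb with more than 20 calls in either list, called dense below, were left out. The 6356 CpG-rich starts, of 5715 protein-coding genes, had 200 RS calls within 300 bp and 488 at 1000 to 2000 bp, or 58.7 and 45.9 calls per Mb. The same starts had 60 M calls within 300 bp and 28 at 1000 to 2000 bp, or 17.6 and 2.63 per Mb. The ratio of inner to outer density was 1.28 in RS (1.08 to 1.51) and 6.69 in M (4.21 to 10.9), so the intervals did not overlap. With calls of more than 6 reads only, it was 2.03 in RS (1.53 to 2.70) and 8.98 in M (3.88 to 23.2). For the list as a whole, calls lay at 62.0 per Mb in RS and 13.1 per Mb in M outside the dense bins. The outer window of CpG-rich starts was therefore at 0.740 of the list's density in RS and at 0.201 in M, and the inner one at 0.947 in RS and 1.34 in M.

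The lists were then set on a common size by multiplying RS counts by 0.235, the ratio of the list sizes, which is the count expected after random thinning; such counts are called scaled. At 1000 to 2000 bp from CpG-rich starts the scaled RS count was 115 and the M count 28, a log2 ratio of 2.04 (1.49 to 2.64). Within 300 bp the scaled RS count was 47.1 and the M count 60, a log2 ratio of -0.35, with an interval from -0.77 to 0.09 that includes 0. Scaling by 0.211, the ratio of the list sizes outside the dense bins, lowers each log2 ratio outside those bins by 0.16. It gave 1.88 in the flanks (1.33 to 2.49) and -0.50 within 300 bp (-0.93 to -0.06), so the interval within 300 bp was clear of 0 on that scale. At the 5468 intermediate starts the inner over outer ratio was 1.37 in RS (1.17 to 1.61) and 4.67 in M (3.19 to 6.88). Within 300 bp of them the scaled RS count was 50.9 and the M count 71, a log2 ratio of -0.48 (-0.87 to -0.07), and with calls of more than 6 reads it was -1.48 (-2.14 to -0.79). At 1000 to 2000 bp from them the log2 ratio was 1.28 (0.85 to 1.74). With calls of more than 6 reads this flank ratio fell to 0.28, with an interval from -0.38 to 1.00 that includes 0. At the 9414 CpG-poor starts the inner over outer ratio was 1.17 in RS (1.04 to 1.31) and 1.56 in M (1.23 to 1.99), and these intervals overlapped.

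**Figure D1:**
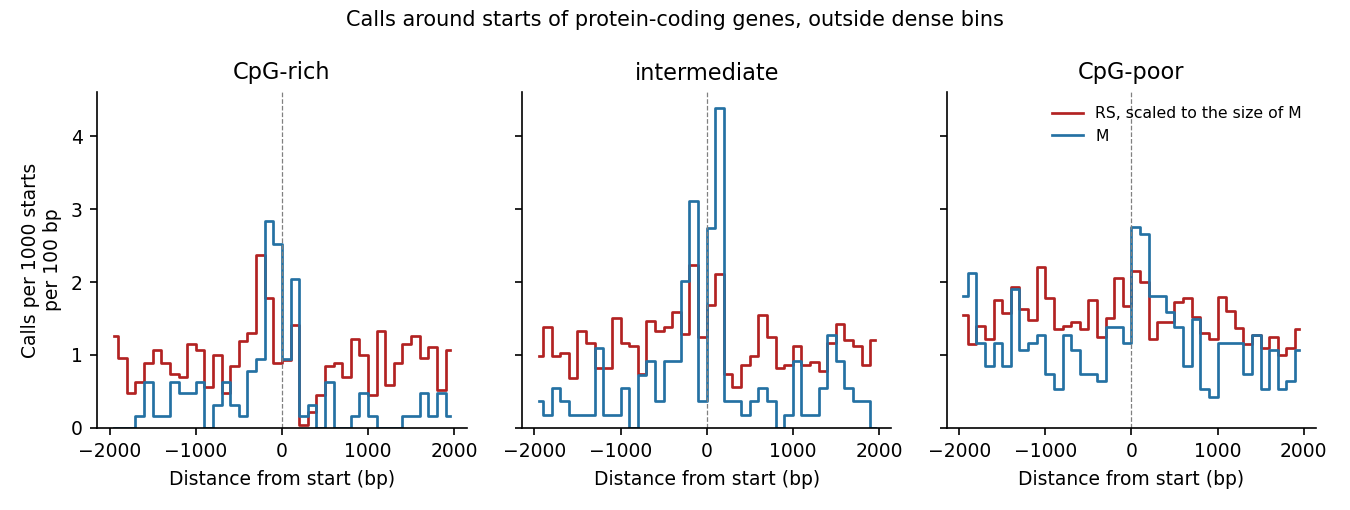
Calls per 1000 starts in 100 bp steps against the distance of the call midpoint from the transcription start (negative is upstream), for RS scaled to the size of the M list and for M, in 3 classes of promoter. At CpG-rich and intermediate starts the M line is low in the flanks and peaks on both sides of the start, and the RS line is higher than M in the flanks.

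The fine profile at CpG-rich starts rests on few calls. In RS the step centred 250 bp upstream held 64 calls, the steps 150 and 50 bp upstream held 48 and 24, and the steps 50 and 150 bp downstream held 25 and 38. In M the same 5 steps held 6, 18, 16, 6 and 13 calls. Both lists had a local maximum 150 bp downstream, where the first nucleosome of the transcribed region usually lies, and a minimum next to it: the step 250 bp downstream held 1 RS call and 1 M call. The upstream maximum was 250 bp from the start in RS and 150 bp in M.

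Few genes had a call at the start in either list. Of the 5715 genes with a CpG-rich start, 127 (2.22%) had an RS call within 300 bp of it, 43 (0.752%) had an M call, and 2 had both. These 2 were 1.57% of the genes with an RS call and 4.65% of those with an M call, so the share called in the other list was not below that of all genes of the class. The corresponding counts were 149, 53 and 6 for intermediate starts, and 267, 66 and 8 for CpG-poor starts. Genes on opposite strands with starts within 500 bp can share a call: they made up 28.3% of the CpG-rich genes with an RS call, 39.5% of those with an M call and 16.6% of all CpG-rich genes. Cfap61, a gene of the flagellar radial spoke, and its neighbour Crnkl1, a splicing factor, were such a pair, each with 2 M calls and no RS call near the start.

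The share of calls near starts of all classes depended on the window. Within 1000 bp of a start lay 1.33% of thinned RS calls and 1.22% of M calls, where such windows cover 1.40% of the mapped span, and the log2 ratio was 0.11 (-0.06 to 0.29). With a window of 500 bp the log2 ratio was -0.23, and with one of 2000 bp it was 0.34. The sign thus turned with the width of the window.

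Base composition under the calls was compared over promoter sequences. Calls were included where all 140 bases lay within the 300-base promoter, which gave 392 RS calls and 90 M calls. They averaged 49.7% ± 10.01 G and C in RS and 50.6% ± 11.5 in M (SD over calls), against 53.9% over every 140-base stretch of these promoters. The mean number of CG dinucleotides per call was 4.23 in RS and 5.71 in M, against 5.77 over every stretch. Promoters with at least 65% G and C had the fewest calls in both lists: 28.9 per Mb in RS (21.6 to 37.8) and 6.11 per Mb in M (3.05 to 10.9). At 50 to 55% G and C the densities were 85.2 per Mb in RS and 24.1 per Mb in M.

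Short motifs were counted in the promoters on both strands, as letters only. The GC box GGGCGG was in 35.6% of all 32815 promoters and in 81.0% of the 6356 CpG-rich ones. It was in 91 of the 140 CpG-rich promoters with an RS call (65%) and in 27 of the 43 with an M call (62.8%). The CCAAT box occurred in 42.1% of those with an RS call, in 34.9% of those with an M call and in 34.0% of all CpG-rich promoters. TATAAA occurred in 7 promoters with an RS call and 2 with an M call.

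Few positions were shared. A position was called shared where the midpoints of an RS and an M call lay within 73 bp. Outside the dense bins, 2293 of 165004 RS calls (1.39%) had an M call, and 2130 of 34891 M calls (6.10%) had an RS call. The M calls with this margin cover 0.144% of the mapped span and the RS calls 0.672%, so calls of one list lay near those of the other 9.67 and 9.08 times as often as these shares of the span. Of the shared M calls, 1162 (54.6%) were within 10 bp of the RS call, and the median distance was 10 bp. The 8.34% of M calls that had a thinned RS call over all bins fell to 2.51% without the dense bins, so most of that share came from them.

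Sharing rose with the number of reads behind a call, which was inferred from the p-value. Of RS calls with 6, 7, 8 to 9 and at least 10 reads outside the dense bins, 0.782%, 1.31%, 4.64% and 47.7% had an M call. Of M calls with 6, 7, 8 to 9 and at least 10 reads, 4.01%, 5.98%, 16.7% and 84.1% had an RS call. The strongest class was small, 1087 RS calls and 453 M calls, and the weakest held 120903 RS calls and 25615 M calls. Calls of at least 10 reads were thus far more often called in the other stage than calls at the minimum of 6 reads, which made up the bulk of both lists. Most calls of at least 10 reads, 80.7% in RS and 84.1% in M, lay inside the dense bins and were left out here. Whether the remaining ones also lie in repeated sequence was not tested.

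The 2 lists also differed in depth, which sets what a call means. The p-values match Poisson tails with a mean coverage of 0.696 reads per position in RS and 0.434 in M, and a minimum of 6 reads in both lists. The weakest RS call was thus 8.63-fold over the mean of its list, and the weakest M call 13.8-fold. Calls at the minimum made up 69.5% of RS calls and 65.4% of M calls, and calls of at least 10 reads made up 3.35% of RS calls and 7.36% of M calls. The RS list was 4.25-fold larger (4.20 to 4.29), and 4.43-fold when overlapping calls were merged into 114817 RS and 25930 M positions. At equal fold over the mean, 5998 RS calls remained against the 42178 M calls, a ratio of 0.142.

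Calls of both lists lay in arrays. The distances between midpoints of calls peaked at 195, 385, 555 and 755 bp within the RS list and at 175, 375, 555 and 725 bp within the M list, outside the dense bins. A line through the 4 peaks gave a repeat of 185 bp in RS and 183 bp in M, with peaks read in steps of 10 bp, so the repeat did not differ beyond the resolution. Between M and RS calls it was 191 bp. The first peak stood 1.91-fold over the following trough in RS (1.78 to 2.06) and 3.21-fold in M (2.66 to 3.89). The second stood 1.48-fold over its trough in RS (1.37 to 1.60) and 1.99-fold in M (1.56 to 2.55). Distances from M calls to RS calls peaked at 185, 385, 555 and 765 bp, with the first peak 2.23-fold over the trough (2.04 to 2.44). Calls of different stages were thus also found at regular distances from each other, although few positions were called in both.

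**Figure D2:**
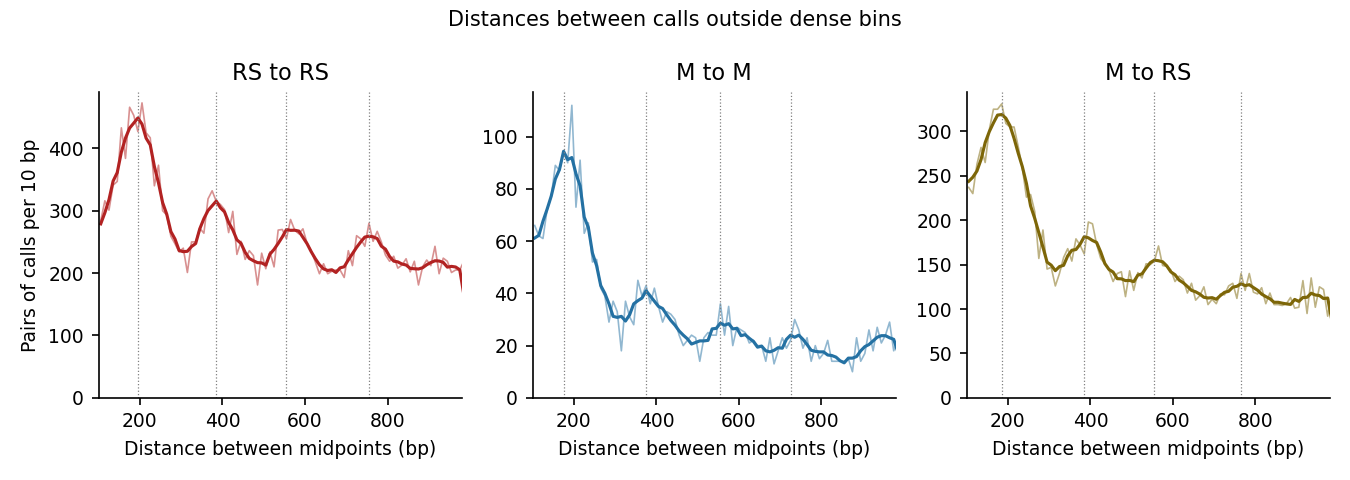
Number of pairs of calls per 10 bp against the distance between their midpoints (bp), within the RS list, within the M list and between M and RS calls; the thick line is a mean over 50 bp, and dotted lines mark the 4 peaks. All 3 panels rise and fall, with a repeat of 185 bp in RS, 183 bp in M and 191 bp between them, and the first M to M peak is the highest over its trough.

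Spacing was similar across regions of different gene content in RS. The first peak lay at 205 bp in 1 Mb bins without a protein-coding gene start, at 195 bp in bins with 1 to 10 and at 195 bp in bins with over 10, and it stood 1.94-, 1.91- and 2.02-fold over the trough. In M it lay at 175, 195 and 175 bp and stood 3.47-, 3.90- and 3.38-fold over the trough. The repeat over 4 peaks was 185, 185 and 179 bp in RS and 213, 184 and 186 bp in M, where the bins without a gene start held 418 pairs and the fourth peak was read at 805 bp. Calls without an overlapping neighbour made up 63.7% of merged positions in RS and 65.8% in M, and positions of at least 3 overlapping calls made up 10.1% in RS and 9.25% in M.

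The X and Y chromosomes held far fewer calls per bp than the autosomes, and fewer in RS than in M. X density relative to the autosomes was 0.0608 in the whole RS list (742 calls) and 0.317 in the M list (866 calls), 5.21-fold lower in RS. With RS thinned to the size of M there were 188 X calls in RS and 866 in M, a log2 ratio of -2.27 (-2.50 to -2.05). Outside the dense bins X density was 5.82-fold lower in RS. Y density was 0.0130 in RS (86 calls) and 0.0626 in M (93 calls), 4.83-fold lower in RS. A call needs 6 reads, so the density of calls does not scale in proportion to the density of reads, and male cells of both stages hold fewer X than autosome copies. At equal fold over the mean the X log2 ratio was -1.48 (-2.03 to -0.93). That setting leaves RS calls of at least 10 reads, of which 80.7% lay in dense bins, against 16.8% of all M calls.

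The low X density of RS was found along the chromosome. In 17 pieces of 10 Mb with at least 20 RS calls, the scaled RS count was below the M count in each, by 2.34- to 8.66-fold. The last piece, from 170 Mb, had 6 RS calls (1.41 scaled) and 1 M call. Of the 17 pieces, the smallest difference was at 20 to 30 Mb, with 20 RS calls (4.71 scaled) and 11 M calls, and the largest at 140 to 150 Mb, with 26 RS calls (6.12 scaled) and 53 M calls. Of X calls outside the dense bins, 66 of 698 RS calls (9.46%) had an M call within 73 bp and 65 of 841 M calls (7.73%) had an RS call. On the autosomes these shares were 1.34% of RS calls and 5.98% of M calls. X calls of RS were thus at positions also called in M more often than autosomal RS calls were; the exact interval for the X was 7.39% to 11.9%. Among them, 9.60% had at least 8 reads, against 5.47% of autosomal RS calls.

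**Figure D3:**
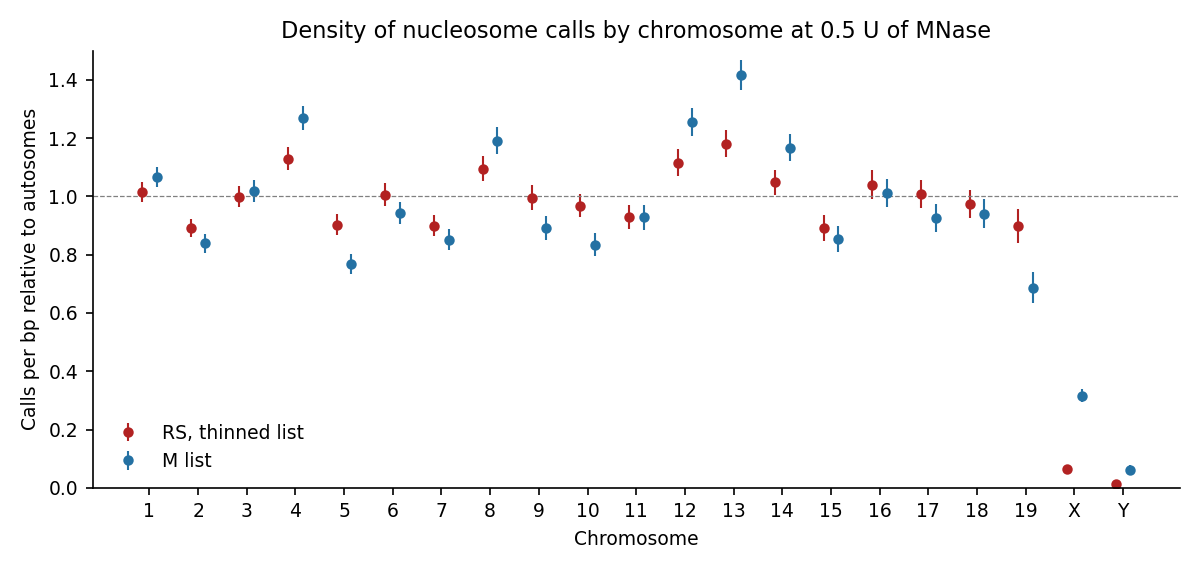
Calls per bp relative to all autosomes together, for the thinned RS list (left point of each pair) and the M list on each chromosome, with 95% counting intervals. On X and Y both lists are far below 1 and RS is below M, while autosomes lie between 0.686 and 1.42.

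Among autosomes the lists differed by much less, and in step with gene content. Outside the dense bins, the log2 ratio of RS to M density ran from -0.15 on chromosome 1 to 0.28 on chromosome 19, with 0.27 on chromosome 11. Over the 19 autosomes it correlated with the number of protein-coding genes per Mb (Pearson's coefficient 0.775, Spearman's coefficient 0.823). This is a description, since all points come from the same 2 lists.

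The same tendency held within chromosomes. Both lists were densest in regions without genes and thinnest in regions rich in genes, and the fall was steeper in M. Dense bins were left out of the relative counts. Relative to the mean of all 1 Mb bins of the autosomes, the 286 bins without a gene start had 1.26 times as many RS calls and 1.61 times as many M calls. Bins with 3 to 5 starts were near the mean at 1.01 in RS and 0.974 in M, and the 247 bins with over 20 starts were at 0.751 in RS and 0.534 in M. The shares that follow, with RS thinned, include the dense bins. Gene-poor bins held 14.6% of RS and 17.6% of M calls, a log2 ratio of -0.28 (-0.32 to -0.23), and without dense bins it was -0.35. Gene-rich bins held 7.86% of RS and 5.33% of M calls, a log2 ratio of 0.56 (0.48 to 0.64), and without dense bins it was 0.52. At equal fold over the mean, which leaves RS calls of at least 10 reads, the ratio in gene-rich bins was -0.13 (-0.38 to 0.12). Its sign thus turned, with an interval that includes 0. Of those RS calls 80.7% lay in dense bins, against 16.8% of all M calls, so the 2 sets differ in kind. Protein-coding gene bodies held 34.8% of thinned RS calls and 28.8% of M calls while covering 38.8% of the span, so both lists were below coverage and RS was closer to it; the log2 ratio was 0.27 (0.24 to 0.30).

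**Figure D4:**
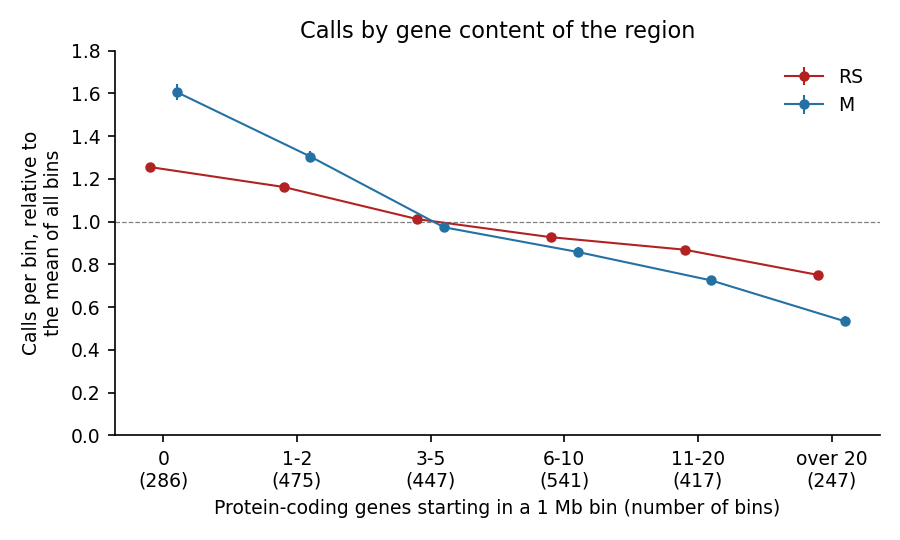
Calls per 1 Mb autosomal bin relative to the mean of all bins, for RS (left point of each pair) and M, by the number of protein-coding genes that start in the bin, with 95% counting intervals outside the dense 10 kb bins. Both lines fall with gene content, RS from 1.26 to 0.751 and M from 1.61 to 0.534, and they cross at bins with 3 to 5 starts.

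Single megabases were compared by their calls outside the dense bins, where they held enough of them. Of 1092 bins of 1 Mb with at least 30 calls (scaled RS plus M), 14 (1.28%) were at least 2-fold higher in RS and 16 (1.47%) at least 2-fold lower, and with no replicate list this is a fold and not a test. The other 1321 of the 2413 bins, which include 208 of the 247 gene-rich ones, held fewer calls: 495 of them were at least 2-fold higher in RS and 8 lower. The highest of the 1092 was chromosome 17 from 30 to 31 Mb, with 204 RS calls (48.0 scaled) and 7 M calls, a log2 ratio of 2.69. This bin holds Btbd9, Dnah8 and Glo1, the gene of glyoxalase I. The bin before it, from 29 to 30 Mb, had 42 RS calls and 1 M call, and the bin after it had 35 RS calls and 6 M calls. The next highest were chromosome 6 at 50 to 51 Mb, with 101 RS and 8 M calls, and chromosome 9 at 82 to 83 Mb, with 99 RS and 9 M calls, which holds Mei4, a gene of meiotic double-strand break formation. A pair of bins of chromosome 7 followed, with 97 RS and 9 M calls and with 96 RS and 9 M calls. The lowest was chromosome 14 at 39 to 40 Mb, where Nrg3, a neuregulin, lies, with 56 RS calls (13.2 scaled) and 38 M calls, a log2 ratio of -1.49. The defensin region of chromosome 8 at 20 to 21 Mb had 307 RS and 173 M calls outside its dense bins (-1.25). Dense loci in the same megabase, the largest with 514 RS and 221 M calls, were left out. The bin of Cdh18, a cadherin, had 82 RS and 45 M calls (-1.20).

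Genes were compared by the calls in the body and 1000 bp on each side. Of 21887 protein-coding genes, 10929 had no call in either list, and 661 had a sum of at least 8 (scaled RS plus M). Among these, 73 (11%) were at least 2-fold higher in RS and 69 (10.4%) at least 2-fold lower, with a median log2 ratio of -0.01. When both lists were scaled without their dense bins the counts were 52 higher and 89 lower of 610, with a median of -0.15. The genes that reached the sum were long, with a median length of 385 kb against 17.2 kb for all genes. The 6 genes of X among them were all lower in RS, which the minimum sum favours, since X genes reached it mainly through M. By length class, with RS counts multiplied by 0.211, the ratio of list sizes outside the dense bins, in place of 0.235, the log2 ratio of RS to M calls was 0.25 for genes under 10 kb, 0.63 for 10 to 50 kb, 0.55 for 50 to 200 kb, 0.22 for 200 to 500 kb and -0.02 above 500 kb. Above 500 kb the sign depended on the scale, as 0.235 gave 18.3 scaled RS and 16.7 M calls per Mb.

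The 12 genes with the highest ratio outside the dense bins were all autosomal. They were picked by this ratio, and each reached the minimum sum of 8 with its scaled RS count alone. The limits and the interval given for them cover counting error only and do not allow for that choice. Kalrn, which encodes kalirin, had 60 RS calls (14.1 scaled) and 0 M calls. RS was 4.71-fold higher with M set to 3 calls, an upper limit for a count of 0. The 60 calls fell into 41 positions over the 604 kb gene, with at most 3 in any 10 kb. Ankfn1 and Spag16, a protein of the central apparatus of the flagellum, each had 39 RS calls (9.18 scaled) and 0 M calls, 3.06-fold higher with the same limit. Dlgap2, a scaffold of the postsynaptic density, had 57 RS calls and 1 M call, with a counting interval of the log2 ratio from 1.21 to 9.07. Btbd9 had 81 RS calls and 2 M calls, and Dnah8, a dynein heavy chain of the sperm axoneme, had 78 RS calls and 2 M calls. These 2 neighbours held 219 and 311 RS calls per Mb, against 62.0 over the whole list. They held 5.42 and 7.97 M calls per Mb, against 13.1. Each of these M values rests on 2 calls, too few to call the genes low in M. The other 6 were Sox6 (41 RS and 1 M), Dip2c (39 and 1), Syn3 (38 and 1), Vps13b (38 and 1), Kcnd3 (34 and 1) and Ptprm (34 and 1). Among them are a transcription factor (Sox6), a synapsin (Syn3) and a potassium channel (Kcnd3).

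The 12 lowest genes held few calls, were picked by the same ratio and reached the minimum sum mainly through M. Dmd, the X-linked dystrophin gene, had 3 RS calls (0.706 scaled) and 18 M calls, a log2 ratio of -3.94. Frmpd4 and Zc3h12b, also on X, each had 3 RS calls and 8 M calls. The other 9 were autosomal: Mllt3, a reader of acylated histones, had 8 RS and 12 M calls, Stat4 had 8 and 11, and Fshr, the receptor for follicle-stimulating hormone on Sertoli cells, had 10 and 13. Chil4, a chitinase-like gene of 17.99 kb in a cluster of related genes, had 16 RS and 19 M calls, with up to 9 RS and up to 10 M calls in a 10 kb bin. Lrrtm3, Mef2c and Snx2 had 5 RS and 7 M calls each, Mme had 6 and 8, and Gm36079 had 12 and 14. All 11 M calls of Stat4 fell into 5 positions, whereas the 13 of Fshr fell into 11.

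**Figure D5:**
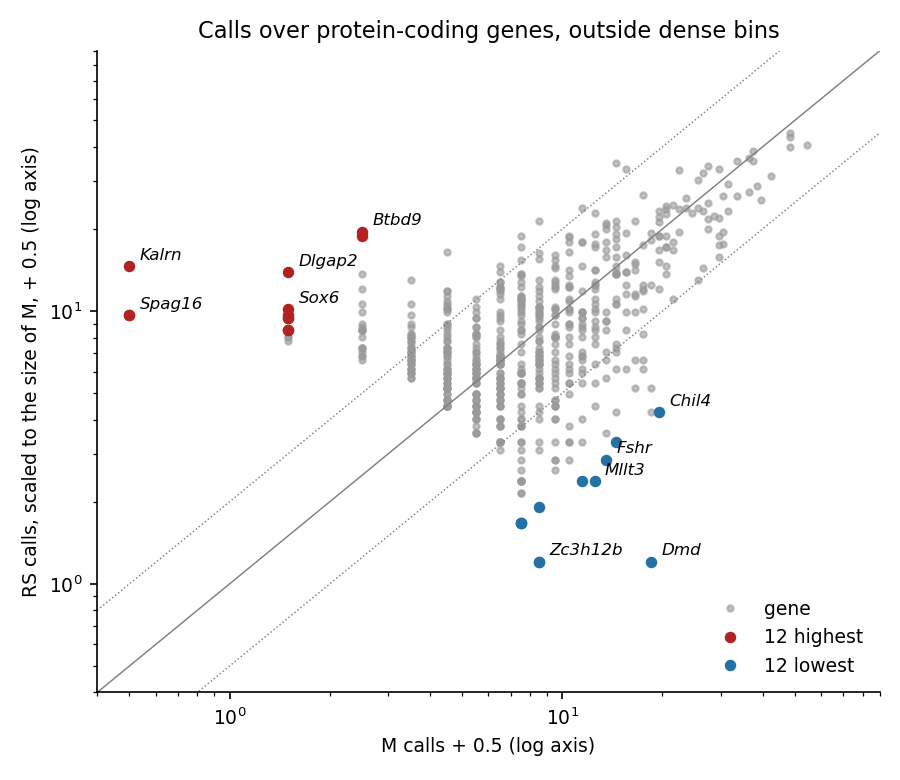
Scaled RS calls against M calls for the 637 protein-coding genes with a sum of at least 8 outside the dense bins, with 0.5 added to both and both axes logarithmic; the solid line marks equality and dotted lines 2-fold. The 12 highest genes, such as Kalrn and Btbd9, lie at 0 to 2 M calls, and Dmd lies farthest below the line of equality.

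Of genes central to the change of chromatin in these cells, few had a call. Prm1 and Prm2, the protamines, Tnp1 and Tnp2, the transition proteins, Sycp3, of the synaptonemal complex, and Kat2a, which encodes the acetyltransferase GCN5, had 0 calls in both lists. Sycp1, the transverse filament of the synaptonemal complex, had 11 RS calls and 0 M calls, and Brdt, the bromodomain protein of the testis, had 3 RS calls and 0 M calls. The protamine and transition protein genes are each under 1 kb long, and all 7342 genes under 10 kb together held 2625 RS and 467 M calls.

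Gene groups were set against all protein-coding genes, which held 62475 RS (14710 scaled) and 10802 M calls outside the dense bins and of which 79.4% with any call had a scaled RS count above M. A gene with a single RS call and none in M counts as higher in RS here. The lists were not matched for gene length. All genes of 10 to 50 kb had 11573 RS and 1587 M calls, and those of 50 to 200 kb had 19539 and 2827. Both classes thus had more RS calls per M call than all genes. How far length accounts for the ratio of a list was not tested. Genes of the sperm flagellum and axoneme stood highest among lists with an interval clear of 0: 457 RS calls (108 scaled) and 31 M calls, a log2 ratio over all genes of 1.35 (0.83 to 1.87). RS was above M in 48 of the 54 members with a call (88.9%), and the ratio was 1.18 without Dnah8. The median length in this list was 65.9 kb. Dnah8 and Spag16 were highest. Dnah11, a dynein of motile cilia, was among the lowest with 14 RS calls (3.30 scaled) and 6 M calls, and so was Odf1, an outer dense fibre protein, with 1 RS call and 3 M calls.

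Acrosome genes had 61 RS calls (14.4 scaled) and 4 M calls, a ratio of 1.40 with an interval from -0.06 to 2.86; Zpbp, a zona pellucida binding protein, had 12 RS calls and 1 M call, and Spata16 had 8 RS calls and 0 M calls. Genes of meiotic recombination and synapsis, with a median length of 37.0 kb, had 159 RS calls (37.4 scaled) and 16 M calls. The ratio was 0.78 (0.04 to 1.52), without a comparison to other genes of that length. Sycp1 was highest, and Ankrd31, a factor of double-strand breaks, was next at 10 RS calls and 0 M calls. Tex14, of the intercellular bridge, had 0 RS calls and 2 M calls. Genes of spermatid nuclear compaction (0.49), spermatogonia (0.20), histone acetylation (-0.13), developmental transcription factors (0.28), imprinted genes (-0.22), ribosomal proteins (0.64) and housekeeping genes (2.33, with 29 RS calls and 1 M call) had intervals that include 0. Within them, Zbtb16, a transcription factor of spermatogonial stem cells, had 18 RS calls and 0 M calls, and Kat2b, the paralogue of Kat2a, had 9 RS calls and 0 M calls. Taf4b had 19 RS calls and 2 M calls, and Supt3, a SAGA subunit, had 16 RS calls (3.77 scaled) and 8 M calls. Snrpn, an imprinted splicing protein gene, had 30 RS calls (7.06 scaled) and 12 M calls.

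Lists below all genes were led by large or repeated genes. The 68 very long neuronal genes had 6082 RS calls (1432 scaled) and 1395 M calls, a ratio of -0.41 (-0.49 to -0.32). Their median length was 1117 kb. Genes over 500 kb of any kind had 14176 RS and 3051 M calls, also fewer RS calls per M call than all protein-coding genes. How far length accounts for the ratio of this list was not tested. Scaled RS was above M in 37 members and below it in 31. Of the 66 members that reached the minimum sum, 7 were at least 2-fold higher in RS and 1 was at least 2-fold lower. Within the list Rbfox1, a splicing regulator, had 146 RS calls (34.4 scaled) and 14 M calls, and Macrod2 had 139 RS calls (32.7 scaled) and 15 M calls. At its other end Ptprd, a receptor phosphatase, had 170 RS calls and 54 M calls, so very long genes were not alike. The 123 Vmn2r pheromone receptor genes had 357 RS calls (84.1 scaled) and 122 M calls, a ratio of -0.98 (-1.28 to -0.69), while Vmn1r genes (-0.27) and olfactory receptors (-0.08) had intervals that include 0. Vmn2r genes resemble each other closely, and reads can be split between copies. Marker genes of Sertoli and Leydig cells, the somatic cells a testis fraction can hold, had 45 RS calls (10.6 scaled) and 22 M calls, a ratio of -1.50 (-2.24 to -0.76). Without Fshr it was -0.57, so 1 gene carried most of it. A list of 29 genes of X and Y, drawn up for multicopy families, had 13 RS calls and 17 M calls, a ratio of -2.92 (-3.96 to -1.88). Only 4 members had a call and 25 had none. Mid1, a ubiquitin ligase gene on X, had 12 of the RS and 10 of the M calls. The rest were those of the Y genes Eif2s3y (1 RS and 2 M), Uty (0 and 2) and Usp9y (0 and 3). The ratio thus rests on these 4 genes and does not describe multicopy families.

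The dense bins made up a separate part of both lists. The 247 dense bins formed 94 loci and held 13669 RS calls, 7.63% of the list, and 7079 M calls, 16.8%. They held 80.7% of RS calls and 84.1% of M calls with at least 10 reads. Scaled RS was higher in 19 of the loci and M in 75, with a median log2 ratio of -0.80. One unplaced contig had 1815 RS and 1472 M calls (-1.78), and the locus of Prl2c3, a placental prolactin family gene, on chromosome 13 had 1687 RS and 820 M calls (-1.04). The Sfi1 and Pisd-ps1 locus of chromosome 11 had 847 RS and 548 M calls (-1.46). These loci hold repeated sequence, where reads from several copies can be placed at the same position, so their counts are uncertain.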

How the data were processed

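MNase-seq samples of 2 stages were compared at 0.5 U of MNase, 2 samples per stage. Per the submitters' processing notes, STAR 2.5.2a and build GRCm38/mm10 were used; which nucleosome caller was run, and with what threshold, was not given in the sources used here. The authors deposited 1 list per stage, made from both samples per the series' design text, with 140 bp calls and a p-value for each call; no read counts were used. Read numbers were derived by matching p-values to Poisson tails, and sequencing depth is unknown. Genes, starts and promoter sequences came from RefSeq tables of GRCm38.p6; 17469 of 21887 protein-coding genes had a start there. RS was thinned at random to 42178 calls (seed 1) for shares, or scaled by list size for genes and bins. Intervals are Clopper-Pearson (exact binomial) for shares and normal or exact for log2 ratios; 0.5 was added to counts in gene ratios. Named genes were the 12 highest and 12 lowest with a sum of at least 8, the 5 highest and 5 lowest bins, the extremes of each of 16 gene lists (the lists in full gave the values in the text), and 8 set genes; promoter examples and any further names were picked once their values had been seen. Members, lists and rules were chosen with earlier results of these data known. Steps were tested on simulated data. Python 3.11.15, numpy 2.4.6, pandas 2.3.3 and scipy 1.17.1 were used. Alternatives covered thinning, call strength, dense bins, merging, windows and the minimum sum.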

Additional observations from a re-analysis of the deposited data

How the results depend on the processing

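Of 89 alternative values, 47 stayed inside the counting interval of the value reported or within 1.5 times a count, 41 moved outside it and 1 reversed. The reversal was the log2 ratio of gene-rich bins at equal fold over the mean coverage, at -0.13 (-0.38 to 0.12). The cause was not tested, and 80.7% of the RS calls at that setting lay in dense bins, against 16.8% of all M calls. At that setting the X density ratio was -1.48, the gene body ratio 0.11, the start ratio 0.43, the gene-poor ratio -1.18, sharing 7.96% and the list size ratio 0.142, by construction with 5998 RS calls. Thinning with seed 2 gave an X ratio of -2.57. With the RS calls of smallest p-value, the gene body ratio was 0.19, the gene-poor ratio -0.39, the gene-rich ratio 0.39 and sharing 13.0%. Calls above 6 reads gave a gene body ratio of 0.18, a gene-poor ratio of -0.14, sharing of 18.6%, a list size ratio of 3.74, and 49 genes past 2-fold, 21 higher and 28 lower. Without dense bins the gene-poor ratio was -0.35, sharing 2.51% and the list size ratio 4.71. Merging overlapping calls gave an X ratio of -2.63, a gene body ratio of 0.31, sharing of 1.43%, a list size ratio of 4.43, and 55 genes past 2-fold, 19 higher and 36 lower. Without thinning, 16.5% of M calls were shared; windows of 10 and 36 bp gave 2.60% and 5.78%. Start windows of 500 and 2000 bp gave ratios of -0.23 and 0.34. A minimum sum of 15 left 50 genes past 2-fold, 18 higher and 32 lower, and no minimum gave 4756, 3532 higher and 1224 lower, against 142, 73 higher and 69 lower. At CpG-rich starts, wider CpG classes, calls above 6 reads, merging and scaling by list sizes outside dense bins, added after the data were seen, left the flank ratio between 1.75 and 1.89 and the inner ratio between -0.56 and -0.36. The flank and inner ratios were not computed at equal fold over the mean coverage. The X density was lower in RS and the gene-poor share lower in RS under all 7 alternatives run for each. No paired analysis was possible because each list pools both samples of its stage; for the same reason no sample could be left out. Most calls rest on 6 reads, so 1 read more or fewer decides them, which limits single genes.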
